A study of Homo sapiens with 4 samples.

Results

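Genes of the interferon response and of antigen presentation on MHC class I were followed in Huh7 cells, an established human hepatocyte-derived carcinoma line, with and without knockdown of NUP210. The group was named as 34 genes, and rows were taken where the gene symbol in the deposited tables equalled a member or its older alias. Of the 34, 28 had a row among the 20226 genes listed, and 16 were tested among 10140 genes that reached 5 TPM in at least 2 libraries. TPM, the usual RNA-seq abundance unit, corrects reads for the length of a transcript and scales every library to the same total. IFITM1, IFIT2, IFI44, BST2, OASL and IFI27 were not analysed here.

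RNA sequencing libraries were made from untreated Huh7 cells in 2 groups of 2. The shNUP210 group carried that genotype in its labels and a short hairpin against NUP210, which encodes a membrane glycoprotein of the nuclear pore. The shCon group was named as the control in the titles and given the genotype wild type. Whether the paired libraries are separate cultures or clones is not said in the labels, so any p-value here rests on a spread that may be only technical.

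Interferons are secreted proteins that bind paired receptor chains and, through the JAK kinases, activate STAT factors, of which STAT2 joins IRF9 in the complex ISGF3. ISGF3 binds a DNA motif called the interferon-stimulated response element (ISRE), whereas the response to interferon-gamma runs largely through the gamma-activated site (GAS). The target genes include antiviral effectors, the ubiquitin-like modifier ISG15 and the MHC class I pathway, in which TAP1 and TAP2 carry peptides into the endoplasmic reticulum, TAPBP aids loading, and B2M pairs with the HLA heavy chains. Liver cells respond to interferon in viral hepatitis.

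Promoter sequences are shown for members whose levels spanned the range of the group, from IFIT1, at 0 in both controls, to B2M, the most abundant. Each is the 250 bases before a RefSeq gene start on GRCh38.p14, 5′ to 3′ on the strand of the gene, and all of these lie on the plus strand. In the first sequences capitals mark matches on either strand to the ISRE core GAAANNGAAA (TTTCNNTTTC on the other strand), and matches that overlap run together. In the IRF9 sequence capitals mark the GAS core TTCNNNGAA, which reads the same on both strands.
B2M (chr15:44711267-44711516): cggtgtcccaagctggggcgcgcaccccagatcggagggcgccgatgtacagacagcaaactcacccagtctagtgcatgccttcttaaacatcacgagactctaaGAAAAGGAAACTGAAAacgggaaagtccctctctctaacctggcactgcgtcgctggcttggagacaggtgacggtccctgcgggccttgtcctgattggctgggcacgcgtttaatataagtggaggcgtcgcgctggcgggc
ISG15 (chr1:1013247-1013496): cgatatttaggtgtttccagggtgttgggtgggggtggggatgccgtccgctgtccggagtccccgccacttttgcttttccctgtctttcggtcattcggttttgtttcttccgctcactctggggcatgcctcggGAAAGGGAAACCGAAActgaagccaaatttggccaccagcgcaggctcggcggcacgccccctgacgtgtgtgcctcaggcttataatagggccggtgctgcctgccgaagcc
OAS3 (chr12:112938224-112938473): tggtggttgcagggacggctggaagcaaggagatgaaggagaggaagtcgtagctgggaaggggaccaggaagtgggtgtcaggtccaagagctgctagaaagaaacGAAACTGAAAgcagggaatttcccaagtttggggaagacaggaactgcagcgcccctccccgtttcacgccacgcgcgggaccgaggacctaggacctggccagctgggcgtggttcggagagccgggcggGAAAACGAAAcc
IFIT1 (chr10:89392373-89392622): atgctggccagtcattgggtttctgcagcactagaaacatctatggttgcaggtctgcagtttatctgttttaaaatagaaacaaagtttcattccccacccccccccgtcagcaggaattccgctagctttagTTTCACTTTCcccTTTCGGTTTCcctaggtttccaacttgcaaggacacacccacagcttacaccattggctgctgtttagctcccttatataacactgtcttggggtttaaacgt
IRF9 (chr14:24161015-24161264): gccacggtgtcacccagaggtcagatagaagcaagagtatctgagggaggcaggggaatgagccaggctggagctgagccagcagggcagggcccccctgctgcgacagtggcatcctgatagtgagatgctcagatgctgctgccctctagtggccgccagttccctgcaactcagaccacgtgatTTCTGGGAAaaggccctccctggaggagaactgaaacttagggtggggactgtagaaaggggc
The RefSeq table held a window for 28 members, in 37 windows, and had no entry for IFIT2, IFITM2, IRF3, IRF7, OAS2 and OASL. The ISRE core stood in 20 of the 37 windows, of 17 members, and in 1061 of 35116 windows of the same length (3.02%). Of the 17, BST2, IFI27, IFI44 and IFITM1 had no level analysed here, so these 28 members are not the 28 with a row. The members were named as interferon response and MHC class I genes, so their share is not independent of that choice. The GAS core stood in 10 of the 37, of 9 members, and in 2306 of all windows (6.57%). Windows of STAT2, UBE2L6, IFNAR1, IFNGR1, DDX58, HLA-B and HLA-C held neither set of letters. A match is a description of the letters and not a binding site. B2M, ISG15, OAS3 and IFIT1 each held 2 ISRE cores, and their levels, given below, ran from 434 TPM for B2M to 0 for IFIT1.

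NUP210 (GRCh38, chromosome 3, 13316235 to 13420309, minus strand) stood at 10.1 and 9.85 TPM under its own hairpin, compared with 32.8 and 27.3 TPM under shCon. It fell by 1.50 on the log2(TPM + 1) scale (SE 0.24, limma adjusted p = 0.0432), and the adjusted p was 0.162 to 0.167 when any 1 library was left out. It was also above 0.05 with a filter of 1 TPM (0.0781), no filter (0.129), no variance trend (0.0991) and the replicate block (0.082). Library totals were 999992.7 to 999997.8 TPM, so depth is not kept. Genes reaching 1 TPM numbered 14564 and 14405 in shNUP210 and 13920 and 13675 in shCon, and the top 100 genes held 37.6 and 38.1% of TPM against 42.8 and 43.5%. All 12 hepatocyte and Huh7 markers were tested, with 2 called higher (KRT8 by 0.57 and KRT18 by 0.61 on the log2 scale) and 3 lower (APOA1 at -1.31, APOA2 at -0.67 and SERPINA1 at -0.73), and AFP, the most abundant after APOA2, differed by 0.11 (limma adjusted p = 0.243). Of 16 leukocyte markers 9 had a row, with summed levels of 52.2 and 27.5 TPM in shNUP210 and 165.9 and 156.5 TPM in shCon. LYZ made up most of that sum (26.9 and 19.5 against 130.5 and 124.5 TPM, limma adjusted p = 0.00977). CD68 was next (13.9 and 2.48 against 30.7 and 17.9 TPM, limma adjusted p = 0.204), and CD14 overlapped between the groups (7.41 and 3.82 against 4.58 and 9.56 TPM). CD4, CD8A, CSF1R and LAPTM5, at 1.48 TPM or less, differed by 0.548, 0.275, 0.511 and 0.178 on the log2 scale. CD3D and ITGAM differed by -0.302 and -0.095. ITGAM was listed at 0 in 3 of the 4 libraries, and the pan-leukocyte gene PTPRC was not analysed here. Of 12 fibroblast, endothelial and erythroid markers 6 had a row, with sums of 83.8 and 61.7 against 26.6 and 32.0 TPM. COL1A2 was called higher (1.40, limma adjusted p = 0.0334), and PDGFRB, the next in level, differed by 0.26 (adjusted p = 0.692). Chosen after its values were seen, COL1A1 was at 18.9 and 7.55 against 1.25 and 3.80 TPM (1.99, limma adjusted p = 0.136). COL1A1 entered the test only through its shNUP210 values. Among the untested markers COL3A1 lay higher and PDGFRA lower, both at 1.29 TPM or less. The part of depth and of these markers in the values of the members was not tested.

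No member passed the test. By limma on log2(TPM + 1), with Benjamini-Hochberg adjustment over the 10140 genes, 0 of 16 tested members were called in either direction, while 1.79% of all genes were called higher (181) and 1.07% lower (109). At an unadjusted p under 0.05, 2 members were higher (IRF9 and STAT2) against 18.4% of all genes, and 1 was lower (UBE2L6) against 5.95%. Both shNUP210 libraries lay above both shCon libraries in 6 members (B2M, HLA-C, IFNGR1, IRF9, OAS3 and STAT2), as in 42.9% of all genes. They lay below in 2 members (TAP2 and UBE2L6), as in 14.3% of all genes. Of the 6 members above, OAS3, IRF9 and IFNGR1 passed the filter only with their shNUP210 values. Among untested members, IFIH1, IFIT1 and TAP1 lay above, and IRF7 lay below. The shares just given cover tested genes only, and none was computed for genes under the filter. Genes at 5 TPM or more numbered 10201 and 10108 in shNUP210 and 9395 and 9181 in shCon. The effect of the filter on these shares was not tested. An exact permutation test of 2 against 2 libraries cannot give a p under 0.33.

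The members sat close to the middle of all genes. Their median difference, shNUP210 minus shCon, was 0.28 on the log2(TPM + 1) scale (quartiles -0.05 and 0.61), and that of all tested genes was 0.23 (quartiles -0.08 and 0.58). Of the 16, 11 were above 0 and 9 were above the median of all genes. That median is itself set by the scaling, and it was 0.01 after trimmed-mean scaling. That scaling turned the split of all calls to 78 higher and 250 lower, and quantile normalization gave 87 and 116. Leaving out shNUP210 library 1 or 2 brought the calls over all genes to 27 or 24, and leaving out shCon library 1 or 2 brought them to 11 or 4. Differences below are in TPM as deposited, and subtracting 0.23 gives them relative to all genes. In bulk RNA, fewer cells with a transcript and less of it per cell cannot be told apart.

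**Figure D1:**
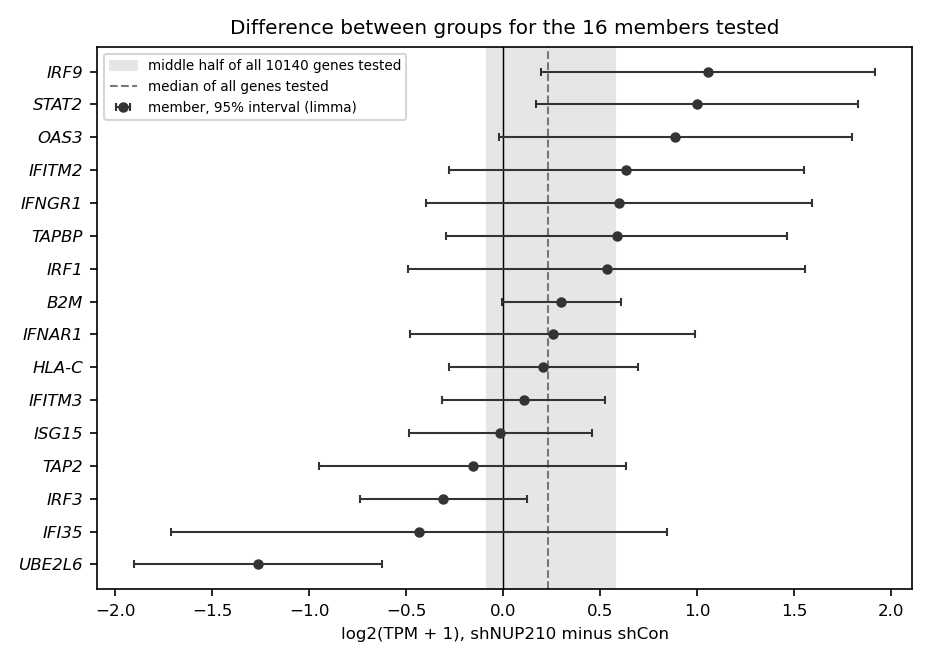
Difference between groups (shNUP210 minus shCon, log2(TPM + 1)) for the 16 tested members, with points at the estimate and bars as the 95% interval of limma; the grey band spans the quartiles of all 10140 tested genes and the dashed line is their median. The points run from UBE2L6 at -1.26 to IRF9 at 1.06, and 3 intervals (IRF9, STAT2 and UBE2L6) leave out 0.

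Members differed widely in level. IRF3 and B2M were at 100 TPM or more in every library, and 12 members were at 5 TPM or more in every library. Another 10 were under 5 TPM in every library, and IFIH1, IFIT1, IFIT3 and OAS2 were under 1 TPM in every library. For a gene with 1 kb of transcript length left after 280 bases are taken off, 1 fragment was worth about 0.453 to 0.584 TPM. This is an approximate figure read from the steps between low values. By it, these last 4 genes rest on at most 3.7 fragments in any library.

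**Figure D2:**
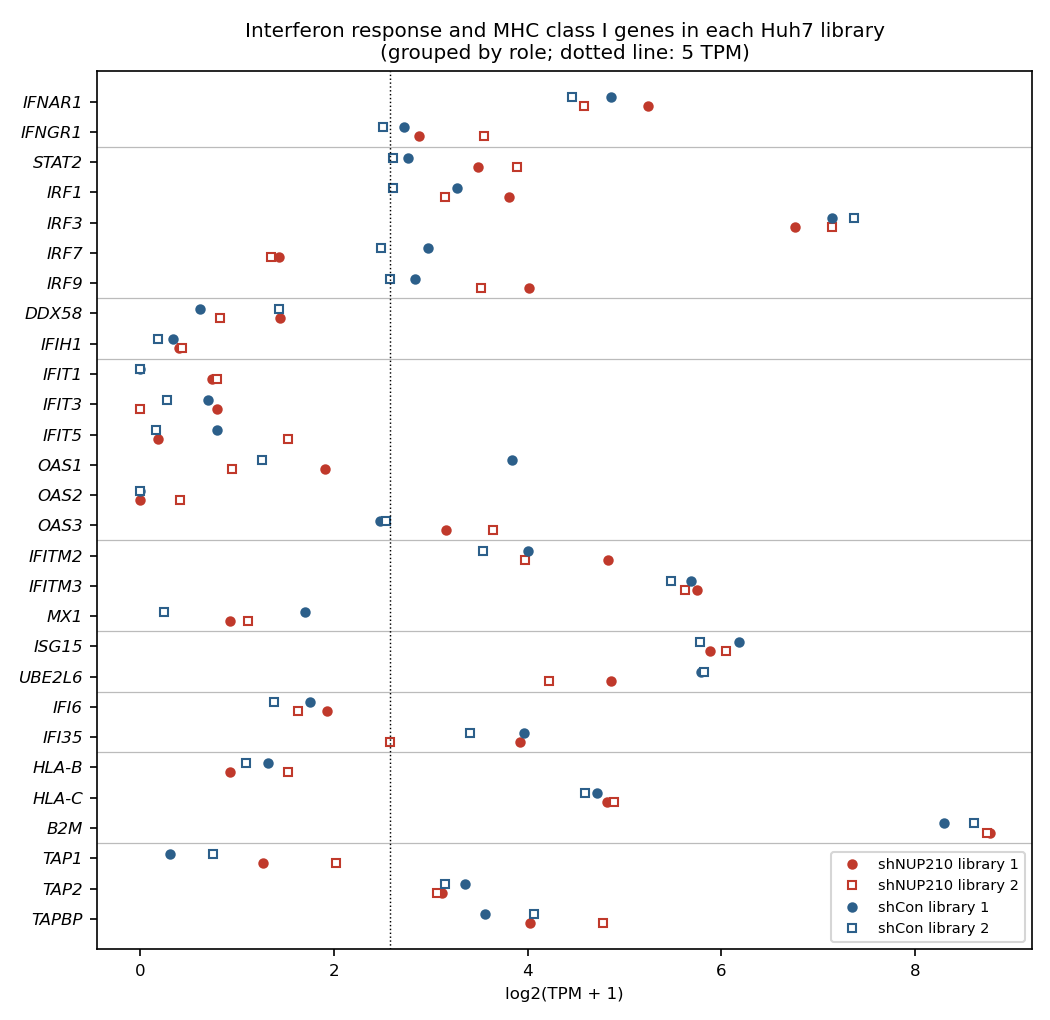
Level of each of the 28 members with a row, as log2(TPM + 1), in the shNUP210 libraries (red) and shCon libraries (blue), with filled circles for library 1 and open squares for library 2, and members grouped by role. The dotted line marks 5 TPM: the IFIT genes, OAS2, MX1, DDX58 and IFIH1 lie left of it in every library, whereas B2M and IRF3 lie farthest right.

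The receptor chains came first in the pathway. IFNAR1 (chromosome 21, 33324477 to 33359862, plus strand), a chain of the receptor for type I interferon, was at 36.8 and 23.0 TPM in shNUP210 and 28.0 and 21.0 TPM in shCon. The groups overlapped, and the difference was 0.26 (95% interval -0.48 to 0.99, limma adjusted p = 0.627). IFNGR1 (chromosome 6, 137197484 to 137219449, minus strand), the ligand-binding chain for interferon-gamma, was at 6.35 and 10.7 TPM against 5.62 and 4.70 TPM. Its groups did not overlap, but the shNUP210 libraries differed from each other more than the nearest libraries of the 2 groups did. The interval was wide (0.60, -0.40 to 1.59, limma adjusted p = 0.402). IFNGR1 reached 5 TPM in only 1 shCon library, so it passed the filter only with its shNUP210 values.

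Subunits of ISGF3 had the highest differences among the tested members. IRF9 reached 5 TPM in only 1 shCon library and passed the filter only with its shNUP210 values. Its place among the tested members is therefore not independent of its direction. IRF9 (chromosome 14, 24161053 to 24166565, plus strand), which gives ISGF3 its DNA specificity, was at 15.2 and 10.4 TPM in shNUP210 and 6.15 and 4.98 TPM in shCon. The group means were 12.8 ± 3.34 and 5.57 ± 0.83 TPM (SD, n = 2 each), a ratio of 2.30. The log2 difference was 1.06 (SE 0.35, 95% interval 0.20 to 1.92, limma unadjusted p = 0.0243, adjusted p = 0.151), so the groups were apart but IRF9 did not pass over all genes. Exons of IRF9 overlap those of another listed gene, and without a stated strand their reads cannot be told apart. STAT2 (chromosome 12, 56341597 to 56360155, minus strand), the ISGF3 subunit that brings the activation domain, was at 10.3 and 13.8 TPM against 5.81 and 5.11 TPM. Its means were 12.0 ± 2.53 and 5.46 ± 0.50 TPM (SD, n = 2 each), and the log2 difference was 1.00 (SE 0.34, 95% interval 0.17 to 1.83, limma unadjusted p = 0.0259, adjusted p = 0.155). Both genes were low, with about 6.6 to 17.1 fragments per library for IRF9 and 12.9 to 27.6 for STAT2. Across all 15 alternative settings the adjusted p of IRF9 was 0.148 to 0.420 and that of STAT2 0.138 to 0.418.

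The other interferon regulatory factors ranged widely in level. IRF1, a factor induced by interferon-gamma that drives MHC class I genes, was at 13.0 and 7.88 TPM in shNUP210 and 8.67 and 5.13 TPM in shCon (0.54, -0.49 to 1.56, limma adjusted p = 0.462), and its exons overlap C5orf56. IRF3, which is activated by phosphorylation after virus sensing, was the second most abundant member at 107 and 140 TPM against 140 and 165 TPM (-0.31, -0.74 to 0.12, adjusted p = 0.325), and its exons overlap BCL2L12. In both genes the groups overlapped. IRF7, the factor that amplifies type I interferon production, was not tested because 1 library alone reached 5 TPM. It was at 1.71 and 1.55 TPM in shNUP210 and 6.82 and 4.62 TPM in shCon, a ratio of 0.285 with no overlap. With a filter of 1 TPM in 2 libraries its log2 difference was -1.33 (limma unadjusted p = 0.019, adjusted p = 0.172).

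The cytoplasmic sensors of viral RNA were low in all libraries. DDX58, which encodes RIG-I, was at 1.73 and 0.77 TPM in shNUP210 and 0.54 and 1.70 TPM in shCon. IFIH1, which encodes MDA5, was at 0.32 and 0.35 TPM against 0.27 and 0.14 TPM, at most about 1.0 fragment. In DDX58 the groups overlapped, and neither gene entered the test.

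Among the antiviral effectors, the oligoadenylate synthetases, which make the second messenger that switches on RNase L, differed in level. OAS3 (chromosome 12, 112938352 to 112973249, plus strand) was at 7.90 and 11.5 TPM in shNUP210 and 4.56 and 4.83 TPM in shCon. The groups did not overlap, the ratio of means was 2.06, and the log2 difference was 0.89 (SE 0.37, 95% interval -0.02 to 1.80, limma unadjusted p = 0.0543, adjusted p = 0.214). OAS3 entered the test only through its shNUP210 values, so its place among the tested members is not independent of its direction. OAS1 was at 2.76 and 0.93 TPM against 13.3 and 1.39 TPM, where a single shCon library stood apart and the groups overlapped. OAS2 was listed at 0, apart from 0.33 TPM in shNUP210 library 2.

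The IFIT proteins, which bind viral RNA ends and the translation machinery, were the lowest set. IFIT1 was at 0.67 and 0.73 TPM in shNUP210 and listed at 0 in each control, which gives no fold. With no filter its limma unadjusted p was 0.0367 and its adjusted p 0.304, on at most about 3.7 fragments. That setting kept every gene above 0 in any library, so IFIT1 entered it only through its shNUP210 values. IFIT3 was at 0.74 and 0 TPM against 0.63 and 0.21 TPM, and IFIT5 at 0.14 and 1.89 TPM against 0.73 and 0.12 TPM. In these 2 genes the libraries of a group differed as much as the groups. MX1, a dynamin-like GTPase that blocks influenza and other viruses, was at 0.90 and 1.16 TPM against 2.25 and 0.19 TPM, inside the range of the shCon pair.

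The IFITM genes, whose membrane proteins hinder viral entry, were expressed in all libraries. IFITM3 was at 52.7 and 48.3 TPM in shNUP210 and 50.3 and 43.6 TPM in shCon (0.11, -0.31 to 0.53, limma adjusted p = 0.728). IFITM2 was at 27.4 and 14.7 TPM against 15.0 and 10.6 TPM (0.63, -0.28 to 1.55, adjusted p = 0.338). Both pairs of groups overlapped. These genes are near-identical neighbours, so the split of reads between them is uncertain, and the sign for IFITM3 changed under each of the 4 other scalings (-0.13 to -0.10).

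The ISG15 pathway joins the ubiquitin-like protein ISG15 to targets, with UBE2L6 as its conjugating enzyme, and these partners did not have like values. UBE2L6 (chromosome 11, 57551656 to 57568284, minus strand) was at 28.1 and 17.6 TPM in shNUP210 and 54.2 and 55.5 TPM in shCon. The means were 22.9 ± 7.42 and 54.8 ± 0.94 TPM (SD, n = 2 each), a ratio of 0.417, and both shNUP210 libraries were far under both shCon libraries. The log2 difference was -1.26 (SE 0.26, 95% interval -1.90 to -0.62), or -1.50 relative to the median of all genes. It had the smallest p of the group (limma unadjusted p = 0.00312), and the adjusted p of 0.0682 missed the threshold. After trimmed-mean, median-ratio or upper-quartile scaling the adjusted p was 0.0466, 0.0472 and 0.0478, and over all alternatives it ran from 0.0466 to 0.230. The summed leukocyte markers given above, mostly LYZ, were lower in the same libraries, as in IRF7. CD68 was also lower without overlap (-1.77, limma adjusted p = 0.204), and it passed the filter only with its shCon values. The remaining leukocyte markers with a row overlapped or differed upward at low levels. The part of all these markers in the values was not tested. ISG15 (chromosome 1, 1001138 to 1014540, plus strand) was at 58.1 and 65.2 TPM against 71.4 and 54.1 TPM. Its shNUP210 libraries lay between the shCon libraries, and the difference was -0.01 (95% interval -0.48 to 0.46, adjusted p = 0.973). The intervals of UBE2L6 and ISG15 do not meet, but the difference between the genes was not tested.

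Other interferon-induced genes were IFI35, a leucine zipper protein, and IFI6, a small mitochondrial membrane protein. IFI35 was at 14.1 and 4.96 TPM in shNUP210 and 14.6 and 9.56 TPM in shCon (-0.43, -1.71 to 0.85, limma adjusted p = 0.635), with shNUP210 library 2 alone under the rest, and without that library the difference was 0.24. IFI35 reached 5 TPM in only 1 shNUP210 library, so it passed the filter only with its shCon values. IFI6 was at 2.81 and 2.09 TPM against 2.37 and 1.61 TPM, with overlapping groups.

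On the MHC class I side, the light chain was far more abundant than the heavy chains among the members. B2M (chromosome 15, 44711487 to 44718877, plus strand), the light chain beta-2 microglobulin, was at 434 and 426 TPM in shNUP210 and 314 and 388 TPM in shCon. The means were 430.3 ± 5.60 and 351.2 ± 52.3 TPM (SD, n = 2 each), a ratio of 1.23. The groups did not overlap, yet the log2 difference of 0.30 (SE 0.12, 95% interval -0.01 to 0.61, limma unadjusted p = 0.0533, adjusted p = 0.212) was 0.07 above the median of all genes. HLA-C (chromosome 6, 31268749 to 31272130, minus strand), a heavy chain, was at 27.2 and 28.8 TPM against 25.2 and 23.1 TPM (0.21, -0.28 to 0.69, adjusted p = 0.550), and its sign changed after trimmed-mean (-0.03), median-ratio (-0.02) and quantile (-0.04) scaling. HLA-B was at 0.90 and 1.88 TPM against 1.50 and 1.13 TPM. HLA genes are near-identical and polymorphic, so their levels are uncertain where the counting split reads among them.

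The peptide transporter subunits were unequal in level. TAP2 was at 7.70 and 7.34 TPM in shNUP210 and 9.21 and 7.84 TPM in shCon, and although the groups did not overlap the gap was small (-0.16, -0.95 to 0.63, limma adjusted p = 0.792). Another row with the same symbol overlaps its exons, was at 0.60 TPM in shNUP210 library 1 and at 0 elsewhere, and was left out. TAP1 was at 1.41 and 3.06 TPM against 0.24 and 0.69 TPM, with no overlap. It was under the test filter, its exons overlap TAPSAR1, and with a filter of 1 TPM, which it passed only through its shNUP210 values, the log2 difference was 1.11 (unadjusted p = 0.0676, adjusted p = 0.279). TAPBP, the tapasin that holds empty MHC class I at the transporter, was at 15.3 and 26.5 TPM against 10.8 and 15.8 TPM (0.59, -0.29 to 1.46, adjusted p = 0.354), with overlapping groups.

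The rest of the pathway was read from lists of genes outside the members. None of the 22 interferon ligand genes was analysed here. Of the 170 genes on all 7 lists, ligands included, 121 had a row and 69 were tested. None was called by limma, with 13 higher and 8 lower at an unadjusted p under 0.05, against 18.4 and 5.95% of all genes, and with 26 and 13 whose groups did not overlap, against 42.9 and 14.3%. Their median difference was 0.17, under the 0.23 of all genes.

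Receptors and JAK-STAT signalling had the highest list median (0.47, 15 of 19 genes tested), with 6 higher and 1 lower at an unadjusted p under 0.05 and 10 and 2 whose groups did not overlap. Over all genes those shares were 18.4 and 5.95%, and 42.9 and 14.3%. TYK2, a kinase bound to the type I receptor, was at 116 and 131 TPM in shNUP210 and 76.9 and 101 TPM in shCon (0.48, limma adjusted p = 0.170). Chosen after their values were seen, JAK1 was at 17.4 and 17.2 TPM against 9.46 and 9.30 TPM (0.82, adjusted p = 0.138). IFNAR2, the partner chain of IFNAR1, was at 16.7 and 20.3 TPM against 12.5 and 6.05 TPM (0.99, adjusted p = 0.195). The feedback inhibitor SOCS1 was at 23.6 and 12.2 TPM against 30.4 and 32.3 TPM (-0.85, limma adjusted p = 0.199). USP18, another feedback inhibitor, was higher, as was the list median, at 20.5 and 20.2 TPM against 13.7 and 10.7 TPM (0.70, limma adjusted p = 0.172). The receptor chain IFNLR1 was lower, at 3.12 and 5.96 TPM against 7.97 and 8.32 TPM (-0.77, limma adjusted p = 0.309). IFNLR1 reached 5 TPM in only 1 shNUP210 library, so it passed the filter only with its shCon values.

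Nucleic acid sensing and IRF activation had a median of 0.12 over 14 tested genes, with 2 higher and 2 lower at an unadjusted p under 0.05. PCBP2, an RNA-binding protein that limits the adaptor MAVS, was at 403 and 416 TPM in shNUP210 and 459 and 412 TPM in shCon (limma adjusted p = 0.606), and IRF2BP2, a corepressor that binds IRF2, at 127 and 107 TPM against 86.4 and 87.0 TPM (adjusted p = 0.154). Further interferon-stimulated effectors had a median of 0.21 over 20 tested genes, with 4 higher and 3 lower. TMEM140, an interferon-induced membrane protein, was at 118 and 132 TPM against 92.6 and 86.1 TPM (adjusted p = 0.113). ADAR, an RNA-editing enzyme with an interferon-induced form, was at 91.9 and 58.4 TPM against 60.2 and 43.7 TPM (adjusted p = 0.306). Chosen after its values were seen, the nuclear body gene SP100 was at 5.88 and 8.08 TPM against 0.69 and 0.91 TPM (2.14, adjusted p = 0.0893), and it entered the test only through its shNUP210 values. The exonuclease ISG20, chosen likewise, was at 5.85 and 15.3 TPM against 25.7 and 27.0 TPM (-1.37, adjusted p = 0.143).

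The remaining antigen presentation genes lay near or below the middle of all genes. MHC class I heavy chains, peptide loading and transactivators had a median of 0.14 over 14 tested genes, with 1 higher and 1 lower at an unadjusted p under 0.05. Their most abundant genes were CALR, a chaperone of peptide loading, at 835 and 774 TPM in shNUP210 and 743 and 760 TPM in shCon (limma adjusted p = 0.482), and PDIA3, a disulphide isomerase of the loading complex, at 284 and 314 TPM against 247 and 234 TPM (adjusted p = 0.154). The list of the immunoproteasome, which cuts peptides for MHC class I, and of proteasome activators had a median of -0.18 over 4 tested genes. The 1 lower was the immunoproteasome subunit PSMB10. Chosen after its values were seen, it was at 28.8 and 39.6 TPM against 53.8 and 52.2 TPM (-0.63, limma adjusted p = 0.151). PSME3 was at 133 and 171 TPM against 164 and 148 TPM (adjusted p = 0.887), and PSME1 at 91.8 and 102 TPM against 117 and 124 TPM (adjusted p = 0.223). Of 13 MHC class II genes 3 had a row: CIITA, its transactivator, was at 9.66 and 7.51 TPM against 10.4 and 8.18 TPM (adjusted p = 0.875), and CD74, the invariant chain, at 1.86 and 6.31 TPM against 6.93 and 11.3 TPM (adjusted p = 0.288). CD74 reached 5 TPM in only 1 shNUP210 library, so it passed the filter only with its shCon values.

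**Figure D3:**
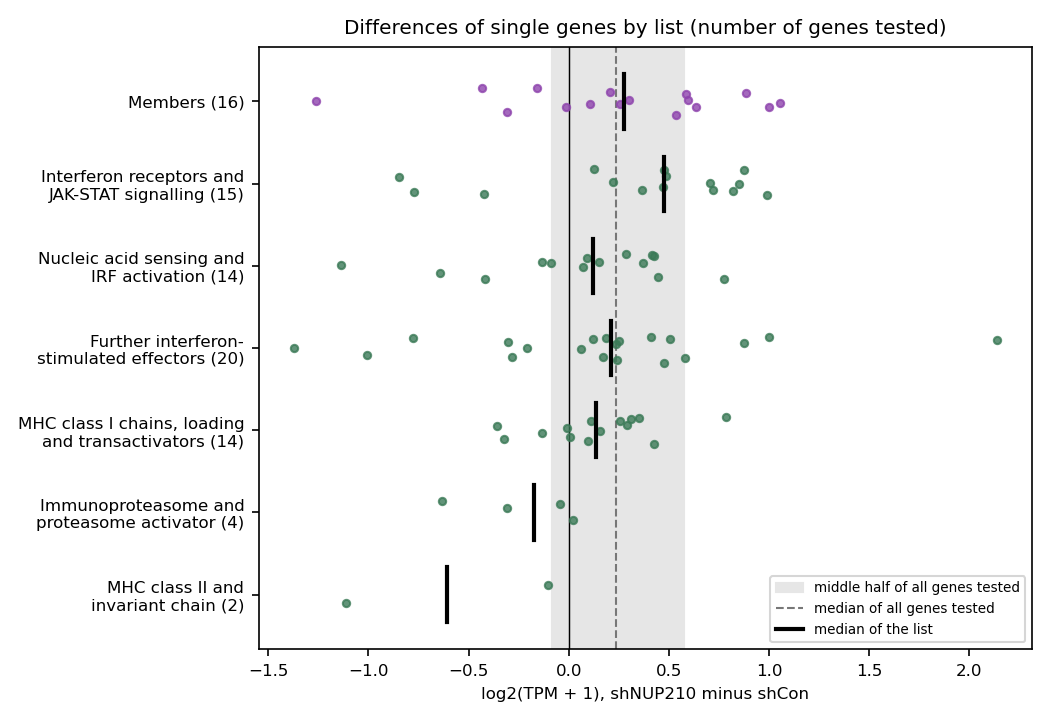
Difference of each tested gene (shNUP210 minus shCon, log2(TPM + 1)) in the members and in 6 lists of other interferon and antigen presentation genes, with a black bar at each median, the grey band spanning the quartiles of all tested genes and the dashed line at their median. The receptor and JAK-STAT list has its median (0.47) right of the dashed line (0.23), and the other 5 lists have theirs left of it.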

How the data were processed

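Total RNA of 4 Huh7 libraries was sequenced after an Illumina TruSeq preparation, per the labels' protocols. The authors deposited 1 table of TPM per library. Trimmomatic, STAR, RSEM, DESeq and hg38 are named, per the submitters' processing notes; their roles, versions, strandedness and annotation release are not given in the sources used here. Read depth is unknown beyond an approximate worth of 1 fragment. Symbols came from the tables, positions from GENCODE release 29 (GRCh38) and promoters from RefSeq.

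Genes with at least 5 TPM in 2 libraries (10140) were tested on log2(TPM + 1) with limma 3.58.1 under R 4.3.3, with a variance trend, two-sided, and Benjamini-Hochberg adjustment over all of them; a call is an adjusted p under 0.05. In simulated data of 10140 genes, 20% of 100 genes changed by 1 log2 unit and 63% of 100 changed by 2 were recovered, with 11 false calls. The simulated spread followed the mean level alone, with equal numbers of genes raised and lowered and no shift of the median. These figures may therefore not hold for the real libraries. The alternatives were other scalings, filters, pseudocounts, no variance trend, a replicate block and leaving out each library. The members, lists, filter and scaling were chosen with earlier results of these data known. Members at 5 TPM in 2 libraries are given in full, others by their values, and of each list the called genes and the 2 most abundant; exceptions are marked, and 1 such gene is not reported here.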

Additional observations from a re-analysis of the deposited data

How the results depend on the processing

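The count of members past the threshold was 0 in TPM as deposited and 1 (UBE2L6, lower) after trimmed-mean, median-ratio and upper-quartile scaling; it was 0 in each of the other 12 settings. Of 240 member differences recomputed, 226 kept their sign and their side of the threshold, 3 (UBE2L6) passed it, and 11 changed sign. HLA-C was at -0.028, -0.024 and -0.043 on the log2 scale after trimmed-mean, median-ratio and quantile scaling, and IFITM3 at -0.133, -0.128 and -0.104 after the same and -0.096 after upper-quartile scaling. Leaving out 1 library, IFI35 ran from -1.105 to 0.239 (without shNUP210 replicate 2), IFNAR1 from -0.072 (without shNUP210 replicate 1) to 0.584, and ISG15 from -0.21 to 0.183 (without shCon replicate 1), with 0.068 without shNUP210 replicate 1. IFITM2 ran likewise from 0.208 to 1.061, IRF1 from 0.206 to 0.864, TAPBP from 0.207 to 0.964, IFNGR1 from 0.259 to 0.933 and B2M from 0.148 to 0.452, all above 0. Over all genes, 290 calls became 57 with a filter of 1 TPM, 15 with no filter, 0 without the variance trend (2290 at an unadjusted p under 0.05), 63 with the replicate block, and 4 to 27 when 1 library was left out; the cause was not tested. The other lists had 0 calls in every setting. With the replicate block 0 members passed. The numbers are not stated to pair the libraries, and deviations of same-numbered libraries correlated at 0.02 across genes. Depth limits the members under 5 TPM, where a few fragments make up a value.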
